A study of Mus musculus with 9 samples.

Results

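The 8 genes described here are 7 members of the regulatory factor X (RFX) family, *Rfx1*, *Rfx2*, *Rfx3*, *Rfx4*, *Rfx5*, *Rfx7* and *Rfx8*, together with the forkhead gene *Foxj1*. They were chosen by name and make up 8 of the 32035 genes, and 44 of the 95301 transcripts assigned to a gene, in RNA sequencing of whole mouse testis. The mice were male, 15 weeks old and of the C57Bl6/N strain, and formed 3 groups with 3 testis libraries each. The wild-type (WT) group carried the intact *Kpna6* gene, which encodes importin α7, an adaptor for nuclear import. The Kpna6 ΔIBB/ΔIBB group had lost exon 2 of *Kpna6* and could make only a truncated protein without the domain that binds importin β. The Kpna6-/- group carried a gene trap in intron 1, but its testes still made full-length protein in germ cells, because a testis-specific first exon (1A) lies downstream of the trap. Both lines had been backcrossed to C57Bl6/N for 10 generations, and the sources used here do not say whether the 3 libraries of a group came from littermates.

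RFX proteins share a winged-helix DNA-binding domain that recognises the X-box, an imperfect inverted repeat found before many ciliary genes. RFX1, RFX2 and RFX3 can bind as dimers, RFX2 is required for spermatids to mature in the mouse, and RFX3 and RFX4 are known from ciliogenesis in other tissues. RFX5 acts with RFXAP and RFXANK at the promoters of class II major histocompatibility genes. FOXJ1 is the master regulator of motile cilia, including those of the efferent ducts, and is also expressed in developing spermatids.

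Short stretches of sequence mark the forms in which these factors occur in testis. The first pair shows the coding exon that separates the 2 *Rfx2* transcripts in the files. It is exon 6 of Rfx2-201, 75 bases or 25 codons long, at chr17:56799250-56799324 on the minus strand of GRCm38, and Rfx2-202 joins the flanking exons without it. Capitals mark the exon, and 18 coding bases are shown on each side.
Rfx2-201: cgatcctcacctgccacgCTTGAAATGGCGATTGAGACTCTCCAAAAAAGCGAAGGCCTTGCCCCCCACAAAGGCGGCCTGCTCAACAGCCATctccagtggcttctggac
Rfx2-202: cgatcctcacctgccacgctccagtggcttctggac

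The next pair shows the coding part of the first exon of the 2 long *Rfx4* transcripts, which begin at different promoters. For Rfx4-202 it lies at chr10:84756471-84756513 and for Rfx4-203 at chr10:84838185-84838279, both on the plus strand of GRCm38. Capitals mark the first 3 coding bases. Rfx4-203 starts 82086 bases downstream of Rfx4-202, shares 13 coding exons with it, lacks 377 coding bases spread over 5 coding exons of Rfx4-202, and has the 95 coding bases printed here that Rfx4-202 does not have. The exon sequences are those of GENCODE M21.
Rfx4-202: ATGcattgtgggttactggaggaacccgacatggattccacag
Rfx4-203: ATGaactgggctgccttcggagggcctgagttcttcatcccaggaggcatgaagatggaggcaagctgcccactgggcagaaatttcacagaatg

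The last stretch lies before the start of *Rfx2* and is shown because it holds the only X-box-like pair of half-sites found among the promoters of the 7 of these genes in the RefSeq table. It is at chr17:56831086-56831148 on the minus strand (RefSeq, GRCm38.p6), and capitals mark the 2 half-sites, the first of which begins 116 bases before the annotated start.
Rfx2: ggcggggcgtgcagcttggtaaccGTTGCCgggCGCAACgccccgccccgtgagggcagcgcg

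Each library held 24859751 to 31484692 estimated counts on genes. *Kpna6* reached 201, 325 and 334 CPM (counts relative to the library total, scaled by the TMM method) in the WT libraries, 81.2, 85.3 and 81.8 in the Kpna6 ΔIBB/ΔIBB libraries and 247, 249 and 262 in Kpna6-/-, so that the Kpna6 ΔIBB/ΔIBB libraries lay below all others. Kpna6-/- had a log2 fold change of -0.18 against WT (SE 0.136, edgeR adjusted p = 0.586), and this whole-testis level does not check its label. Marker genes of cell types moved with the Kpna6 ΔIBB/ΔIBB group. All 12 Sertoli cell markers were higher than in WT, with a summed level of 1357 to 1625 TPM (transcripts relative to all transcripts of a library, corrected for length) against 848 to 931, and 1008 to 1097 TPM in Kpna6-/-. All 8 round spermatid markers were lower, with a summed 2619 to 2784 TPM against 3205 to 3252, and so were all 8 elongating spermatid markers. Of the other lists, 2 of 8 pachytene spermatocyte markers were lower, 3 of 7 spermatogonium markers were higher and 1 was lower, and 2 of 6 Leydig cell and 3 of 6 macrophage markers were higher. The summed level of 9 epididymis and efferent duct markers was 95.2 TPM in Kpna6 ΔIBB/ΔIBB replicate 3 and 4.72 to 8.67 TPM in the other 8 libraries. *Crisp1* alone reached 77.0 TPM in that library, with *Adam7* at 6.99 and *Rnase9* at 3.63, whereas *Lcn5* was at 0 in all 9. *Spag11a* was at 1.04 TPM there and at most 0.263 in the other 8 libraries. *Rnase10*, *Cst11*, *Defb20* and *Lcn8* stayed there within the range of the other 8 libraries. Whether that library held efferent duct material was not tested. In whole tissue, fewer cells of a type and less RNA per cell cannot be told apart.

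All 8 genes were transcribed in testis. In WT testis *Rfx2* had the highest level, 168 ± 3.68 TPM (SD, n = 3), and stood above 95.3% of the 25270 genes with a level above 0. *Rfx4* followed with 108 ± 4.17 TPM, *Rfx1* with 53.9 ± 3.46, *Rfx8* with 45.8 ± 1.70, *Foxj1* with 44.0 ± 1.04, *Rfx3* with 23 ± 2.02, *Rfx5* with 16.5 ± 1.09 and *Rfx7* with 8.38 ± 0.189 TPM. The ranges of *Rfx8* and *Foxj1* overlapped, and those of all other neighbours in that order did not. TPM is a level per transcript length, which allows genes to be ordered. The place of *Rfx4* in this order rested on short noncoding transcripts: summed over protein-coding transcripts alone, *Rfx4* reached 32.9 ± 2.74 TPM in WT testis and ranked below *Rfx1*, *Foxj1* and *Rfx8*.

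**Figure D1:**
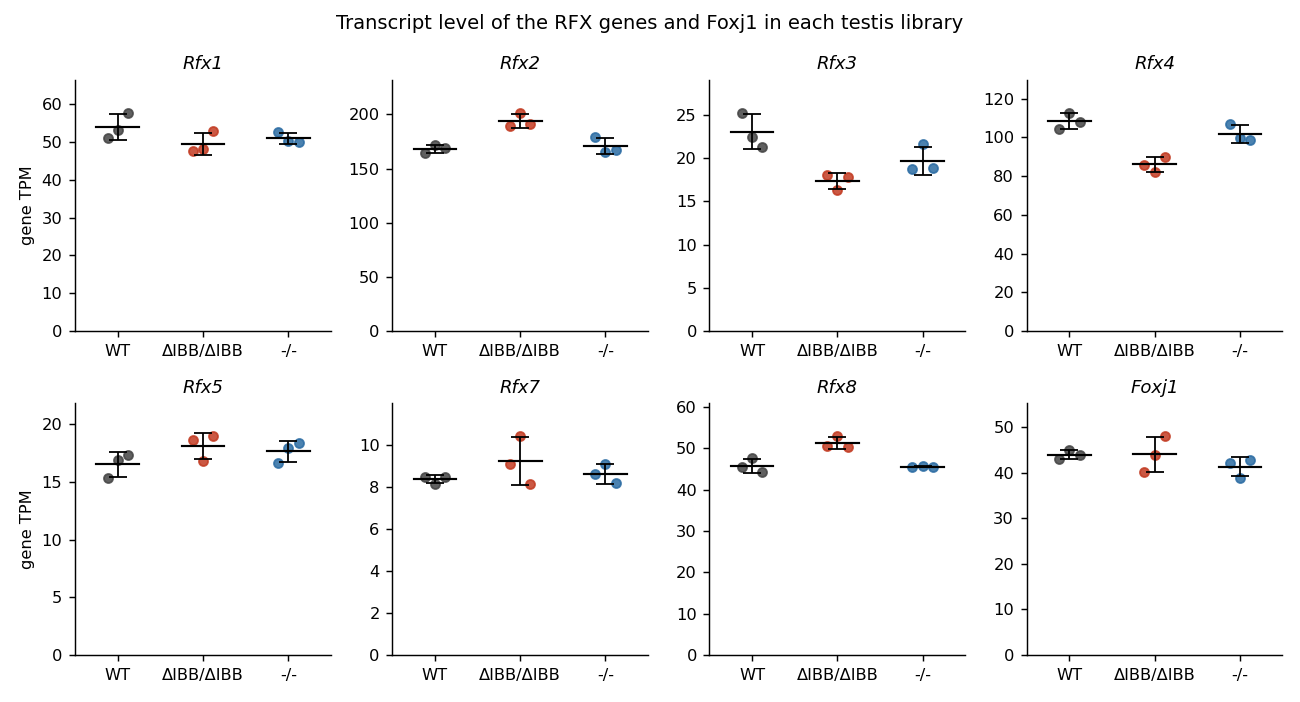
Gene TPM of the 8 genes, 1 panel per gene with its own axis from 0. Each point is 1 testis library of WT, Kpna6 ΔIBB/ΔIBB or Kpna6-/- mice, and the bar and whiskers give the mean and SD of 3. The Kpna6 ΔIBB/ΔIBB points of *Rfx3* and *Rfx4* lie below all WT points, and those of *Rfx2* and *Rfx8* above them.

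To ask which of these genes differed between the groups, their summed counts were tested together with those of all genes by edgeR's quasi-likelihood test with Benjamini-Hochberg adjustment. In Kpna6 ΔIBB/ΔIBB against WT testis, 3 of the 8 genes passed an adjusted p of 0.05, namely *Rfx3*, *Rfx1* and *Rfx4*, and all were lower. Of all 18797 genes tested, 36.6% passed, 18.9% as lower and 17.7% as higher, so the share among the 8 genes was near the background. *Rfx1*, *Rfx3*, *Rfx4* and *Rfx5* were the 4 of 8 that passed as lower in Kpna6 ΔIBB/ΔIBB when set against Kpna6-/-, against 30.3% of all 18752 genes tested, 16.8% lower and 13.5% higher. These comparisons share the Kpna6 ΔIBB/ΔIBB libraries, in which Sertoli cell markers were higher and spermatid markers lower, and the part of these markers' cells in the differences was not tested. Between Kpna6-/- and WT, 0 of 8 passed with edgeR, 0 had an unadjusted p below 0.05, and 0 passed with DESeq2 or limma, against 1.60% of 18681 genes with edgeR. The 95% intervals of those 8 log2 fold changes reached from -0.21 (*Rfx3*) to 0.19 (*Rfx5*).

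**Figure D2:**
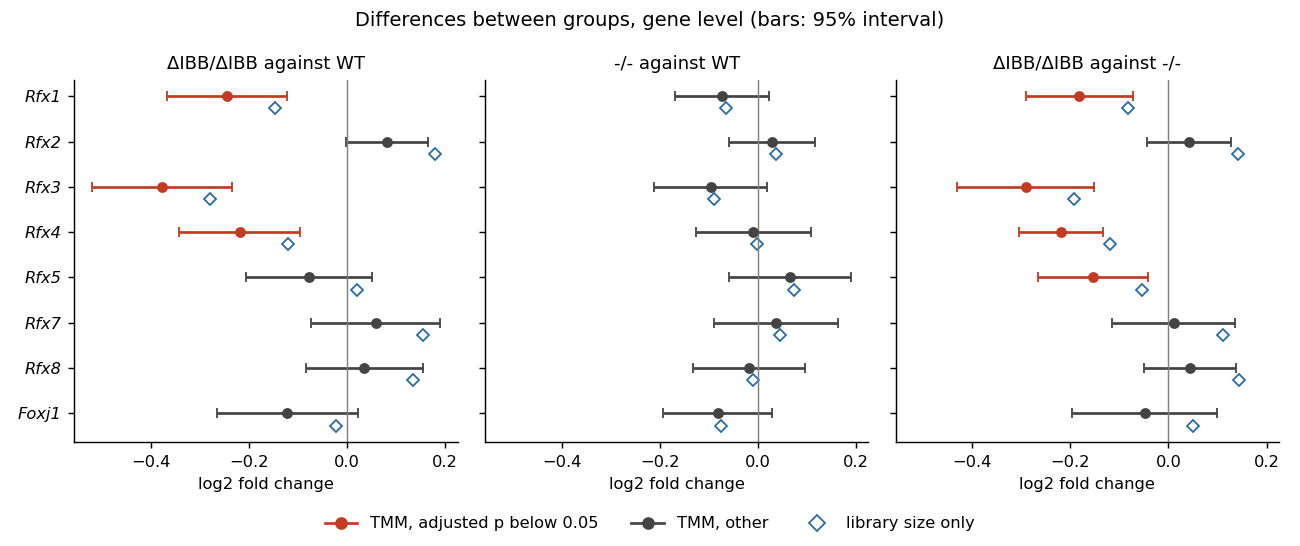
Log2 fold changes at gene level for the 3 comparisons. Filled points with bars are the estimates with TMM scaling and their 95% intervals, red where the adjusted p is below 0.05, and open diamonds are the estimates with library size scaling, which lie to the right in both comparisons with Kpna6 ΔIBB/ΔIBB. The intervals of *Rfx1*, *Rfx3* and *Rfx4* lie below 0 in both of these comparisons, and all 8 intervals of Kpna6-/- against WT include 0.

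The scaling bears on these values. TMM scaling set the median log2 fold change of all genes between Kpna6 ΔIBB/ΔIBB and WT at 0.01, whereas scaling by library size alone set it at 0.11 and turned the calls from 3327 higher and 3547 lower into 5416 higher and 2326 lower. Under library size scaling *Rfx3* stayed lower (log2 fold change -0.28), *Rfx1* (-0.15, edgeR adjusted p = 0.0523) and *Rfx4* (-0.12, edgeR adjusted p = 0.0964) no longer passed, and *Rfx2* passed as higher (0.18, edgeR adjusted p = 0.00178). TPM values are likewise set to a fixed total per library, and on that scale *Rfx2* and *Rfx8* of Kpna6 ΔIBB/ΔIBB lay above WT. Against Kpna6-/-, library size scaling moved the median of all genes from 0.005 to 0.105 and the calls from 2523 higher and 3150 lower to 4931 higher and 2016 lower. There *Rfx3* and *Rfx4* stayed lower, *Rfx1* and *Rfx5* no longer passed, and *Rfx2* (0.14, edgeR adjusted p = 0.00779) and *Rfx8* (0.14, edgeR adjusted p = 0.0204) passed as higher.

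*Rfx2*, the family member required for late spermatid development, lies at chr17:56775897-56831013 on the minus strand of GRCm38 and had no difference past the threshold. Its level was 164, 172 and 169 TPM in the WT libraries, 189, 202 and 192 in the Kpna6 ΔIBB/ΔIBB libraries and 180, 166 and 167 in Kpna6-/-. The TPM values of Kpna6 ΔIBB/ΔIBB lay above those of both other groups. On TMM-scaled counts the groups overlapped, at 422 to 446 CPM in WT, 442 to 469 in the Kpna6 ΔIBB/ΔIBB libraries and 425 to 462 in Kpna6-/-, and the log2 fold change against WT was 0.08 (SE 0.038, 95% interval -0.002 to 0.16, edgeR adjusted p = 0.116). The direction was positive in all 14 alternatives, of which library size scaling and limma on log2(TPM + 1) passed the threshold.

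The longer *Rfx2* form dominated in testis. Rfx2-201, with the 25-codon exon, made up 77.3% ± 2.26 of *Rfx2* TPM in WT, 75.7% ± 1.95 in the Kpna6 ΔIBB/ΔIBB libraries and 72.5% ± 1.77 in Kpna6-/- (SD, n = 3 each), and Rfx2-202 the rest. The shares did not overlap between Kpna6-/- and WT, a difference of -4.78 percentage points, but the exact permutation test of 3 against 3 libraries gave its smallest possible p, 0.1 (adjusted p = 0.533 over 48 share comparisons). Rfx2-202 itself was at 33.9, 38.5 and 42.3 TPM in WT and 45.7, 47.2 and 47.8 in Kpna6-/-, ranges that did not overlap. Its log2 fold change of 0.31 (SE 0.071) did not pass (edgeR adjusted p = 0.383), but passed with DESeq2 (adjusted p = 0.0155). In the GENCODE M21 sequences, only 103 of the 3320 31-base words of Rfx2-201, and 36 of 3253 of Rfx2-202, occur in no other transcript. By these sequences the split rests mainly on reads over 1 exon and its junctions, and otherwise on the slightly longer ends of Rfx2-202. The lengths in the files differ slightly, at 3353 against 3350 bases for Rfx2-201 and 3278 against 3283 for Rfx2-202.

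*Rfx4*, which is known from brain and ciliary development, lies at chr10:84756062-84906538 on the plus strand. Its level summed over all transcripts was lower in Kpna6 ΔIBB/ΔIBB testis in TPM and in TMM-scaled counts. The TPM sum of its coding transcripts alone overlapped between the groups. The gene level was 105, 113 and 108 TPM in WT, 86.0, 82.0 and 90.2 in the Kpna6 ΔIBB/ΔIBB libraries and 107, 99.8 and 98.5 in Kpna6-/-. The Kpna6 ΔIBB/ΔIBB libraries lay below all others. On TMM-scaled counts the log2 fold change was -0.22 (SE 0.056, edgeR adjusted p = 0.0110) against WT and -0.22 (SE 0.039, edgeR adjusted p = 0.00144) against Kpna6-/-, and the first passed in 13 of 14 alternatives. With counts scaled for transcript length the values were larger, -0.45 against WT and -0.37 against Kpna6-/-. Summed over protein-coding transcripts alone, however, the *Rfx4* level was 29.7 to 34.8 TPM in WT, 30.6 to 31.6 in the Kpna6 ΔIBB/ΔIBB libraries and 31.6 to 32.6 in Kpna6-/-, and all 3 ranges overlapped. Those of Kpna6 ΔIBB/ΔIBB and Kpna6-/- met only at their ends (31.562 against 31.553 TPM). The test used counts, of which the coding Rfx4-203 alone held 60.7% in WT. On log2(TPM + 1), the median log2 fold change of all genes between Kpna6 ΔIBB/ΔIBB and WT was 0.096 (limma). The overlap in TPM therefore does not show that the fall lay in noncoding transcripts.

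Which *Rfx4* transcript leads depends on the unit. By TPM the noncoding Rfx4-204, only 270 bases long, held 52.1% ± 6.24 of the gene in WT, yet it rested on 68.3, 65.5 and 52.2 estimated counts, 2.41% of the gene's counts. By counts, Rfx4-203 held 60.7% ± 3.39 and Rfx4-202 31.1% ± 1.66 in WT. Rfx4-203, which starts at the downstream promoter, was thus the leading coding form in testis, at 19.4, 23.4 and 21.4 TPM in WT, 24.1, 22.6 and 21.9 in the Kpna6 ΔIBB/ΔIBB libraries and 22.1, 24.1 and 22.4 in Kpna6-/-. These ranges overlapped in all groups, with a log2 fold change of -0.02 (SE 0.074) between Kpna6 ΔIBB/ΔIBB and WT (edgeR adjusted p = 0.931). Only 4 of the 3244 31-base words of Rfx4-203 occur in no other transcript, against 569 of 3504 for Rfx4-202, so the level of Rfx4-203 rests on how shared reads were assigned.

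Of the transcripts that start upstream, only the long Rfx4-202 passed the test, as lower. It reached 9.72, 9.96 and 10.5 TPM in WT, 6.84, 5.98 and 8.30 in the Kpna6 ΔIBB/ΔIBB libraries and 7.87, 7.21 and 8.91 in Kpna6-/-, so that neither of the other groups overlapped WT. Its log2 fold change between Kpna6 ΔIBB/ΔIBB and WT was -0.62 (SE 0.127, edgeR adjusted p = 0.0278), which passed in 6 of 12 alternatives. Between Kpna6-/- and WT it was -0.32 (SE 0.090), which did not pass (edgeR adjusted p = 0.506). The short Rfx4-204 and Rfx4-206, which share upstream exons with Rfx4-202, had log2 fold changes of -0.51 and -0.70 against WT, neither past the threshold (edgeR adjusted p = 0.192 and 0.258). The test of unequal change among the *Rfx4* transcripts gave an unadjusted p of 0.142 and did not pass (edgeR adjusted p = 1.00).

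**Figure D3:**
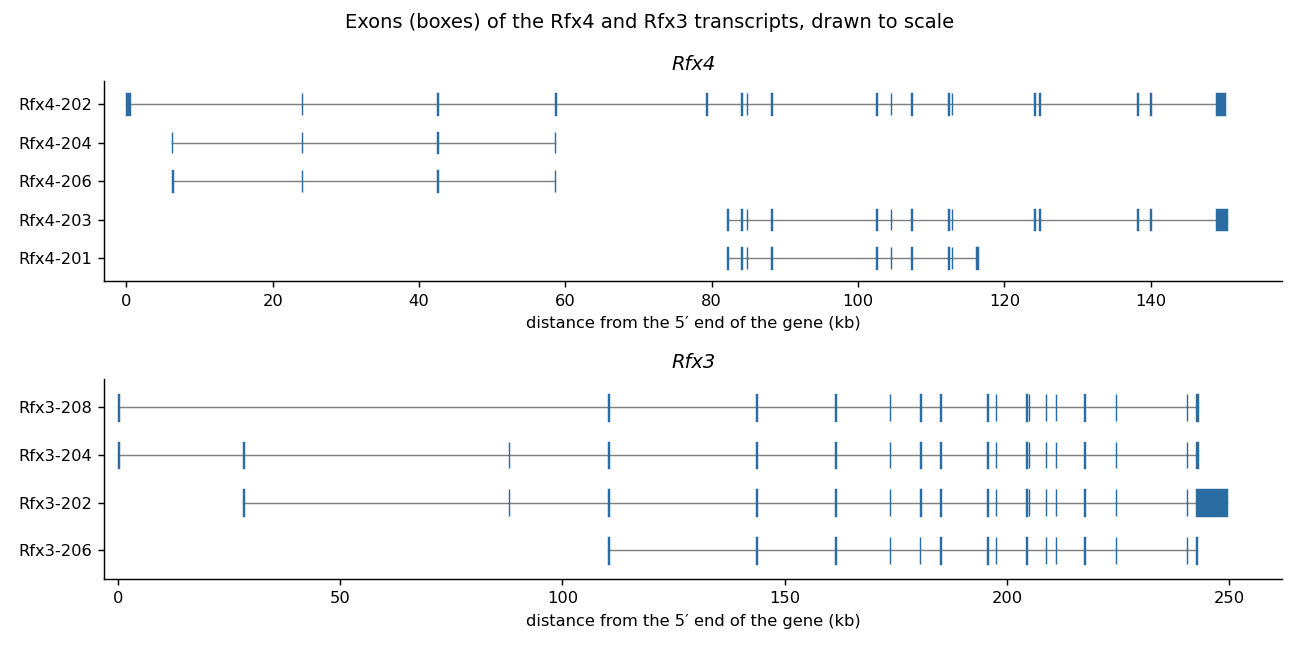
Exons of 5 *Rfx4* and 4 *Rfx3* transcripts as boxes, by distance in kb from the 5′ end of the gene. Rfx4-203 and Rfx4-201 begin about 82 kb into the gene, beyond the end of Rfx4-204 and Rfx4-206, and Rfx3-204 holds 2 early exons that Rfx3-208 lacks.

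*Rfx3*, a regulator of ciliary genes in many tissues, lies at chr19:27761721-28011166 on the minus strand and had the largest fall of the 8 genes in both comparisons with Kpna6 ΔIBB/ΔIBB on TMM-scaled counts. Against Kpna6-/-, the fall of *Rfx4* was larger with length-scaled counts (-0.37 against -0.31) and with limma on log2(TPM + 1) (-0.24 against -0.17). *Rfx3* reached 25.2, 22.4 and 21.3 TPM in WT, 18, 16.3 and 17.8 in the Kpna6 ΔIBB/ΔIBB libraries and 18.7, 21.6 and 18.8 in Kpna6-/-. The Kpna6 ΔIBB/ΔIBB libraries lay below all libraries of the other groups, and Kpna6-/- overlapped WT in TPM but not in TMM-scaled CPM (44.3 to 47.2 against 47.8 to 51.5). Against WT the level fell by 23.1% in Kpna6 ΔIBB/ΔIBB, a log2 fold change of -0.38 (SE 0.065, edgeR adjusted p = 0.00112), which passed in all 14 alternatives (-0.52 to -0.28). Against Kpna6-/- it was -0.29 (SE 0.064, edgeR adjusted p = 0.00478), a call lost with limma on log2(TPM + 1) (-0.17, adjusted p = 0.139), and Kpna6-/- against WT gave -0.10 (SE 0.053, edgeR adjusted p = 0.436).

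No single *Rfx3* transcript dominated. In WT, Rfx3-208 held 35.2% ± 3.13 and Rfx3-204 35.0% ± 3.15 of *Rfx3* TPM. Both, and Rfx3-202, carry the same coding exons, and they differ in noncoding exons and ends. Rfx3-204 was at 9.37, 7.04 and 7.77 TPM in WT, 4.12, 5.93 and 5.61 in the Kpna6 ΔIBB/ΔIBB libraries and 6.66, 8.71 and 8.01 in Kpna6-/-. Its Kpna6 ΔIBB/ΔIBB values lay below both other groups, and the log2 fold change against WT was -0.73 (SE 0.177, edgeR adjusted p = 0.0474), which passed in 2 of 12 alternatives. Rfx3-208, at 8.08, 7.95 and 8.16 TPM in WT and 8.07, 6.73 and 8.37 in Kpna6 ΔIBB/ΔIBB, had a log2 fold change of -0.17 (SE 0.103, edgeR adjusted p = 0.380), and its share of the gene was 44.3% ± 2.93 in Kpna6 ΔIBB/ΔIBB. None of the 2713 31-base words of Rfx3-208, and 28 of the 2591 of Rfx3-204, are unique to the transcript, so that the split between them is uncertain and no difference between the 2 forms can be read from these values.

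Minor *Rfx3* transcripts also passed. Rfx3-206, annotated as a target of nonsense-mediated decay, was at 0.66, 1.30 and 0.98 TPM in WT and 0.39, 0.27 and 0.27 in Kpna6 ΔIBB/ΔIBB, a log2 fold change of -1.72 (SE 0.356, edgeR adjusted p = 0.0291), and also passed against Kpna6-/- (-1.68, SE 0.318, edgeR adjusted p = 0.0256). Rfx3-201 was at 0.71, 0.43 and 0.66 TPM in WT and 0.16, 0.33 and 0.15 in Kpna6 ΔIBB/ΔIBB, with a log2 fold change of -1.58 (SE 0.380, edgeR adjusted p = 0.0475). Against WT, Rfx3-206 passed in 6 of 12 alternatives and Rfx3-201 in 3. Rfx3-201 is 4274 bases long in the files and 8988 in GENCODE M21, and none of the 31-base words of the annotated sequence is unique to it, so what its level measures is uncertain. Both rested on few estimated counts per library, 11.5 to 59.4 for Rfx3-206 and 12.6 to 71.6 for Rfx3-201.

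**Figure D4:**
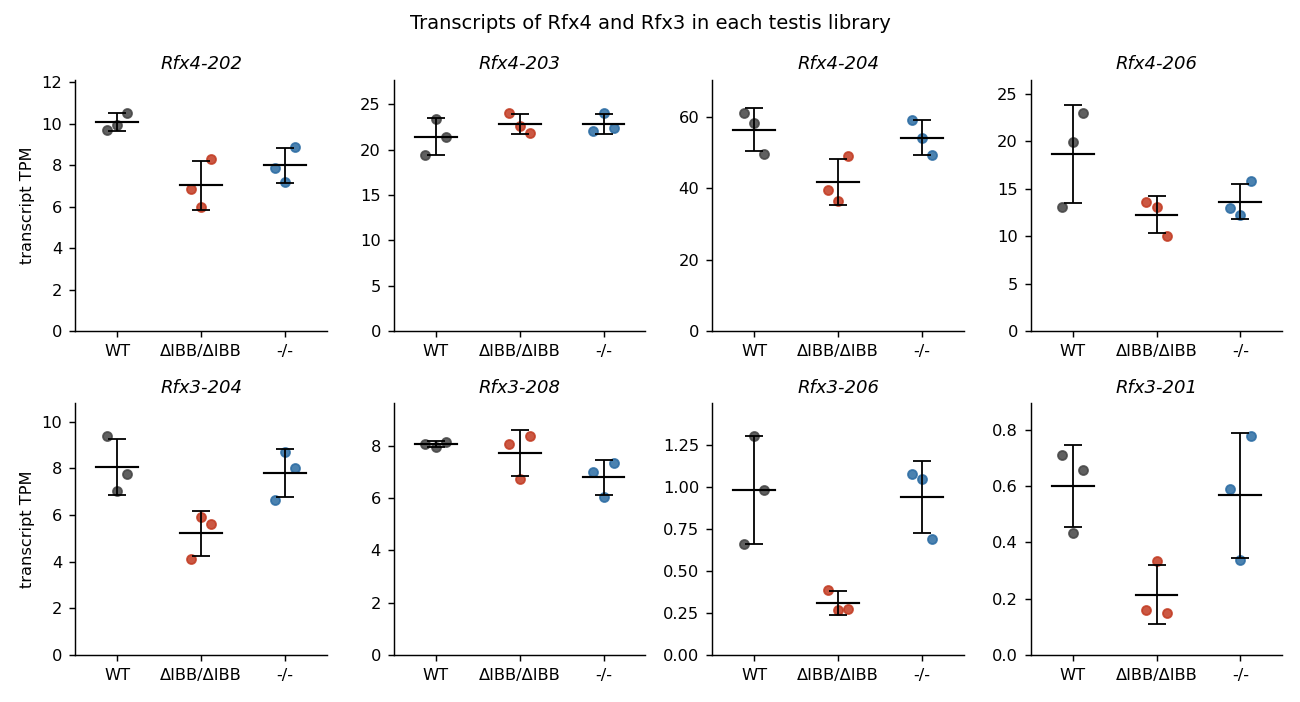
Transcript TPM of 4 *Rfx4* and 4 *Rfx3* transcripts in each library, with the mean and SD of 3 per group and every axis from 0. Rfx4-202, Rfx3-204, Rfx3-206 and Rfx3-201 have Kpna6 ΔIBB/ΔIBB points below all WT points, whereas Rfx4-203 and Rfx3-208 overlap with WT.

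In all, 31 of the 44 transcripts had enough counts to be tested. In Kpna6 ΔIBB/ΔIBB against WT, 4 passed with edgeR (Rfx4-202, Rfx3-204, Rfx3-206 and Rfx3-201), all lower, against 9.73% of 47090 transcripts. Only Rfx3-206 passed in Kpna6 ΔIBB/ΔIBB against Kpna6-/-, against 7.35% of 46901. Between Kpna6-/- and WT 0 of 31 passed with edgeR, although 5 had an unadjusted p below 0.05, and 1 passed with DESeq2 (Rfx2-202), against 0.0561% of 46346 with edgeR. Leaving out 1 library brought the 4 calls to between 0 and 2, with 0 without WT replicate 2, WT replicate 3 or Kpna6 ΔIBB/ΔIBB replicate 1. Each of the 4 kept its direction in all 12 alternatives. No gene of the 6 with more than 1 tested transcript showed unequal change among its transcripts in any comparison, against 2.11% of 9843 genes for Kpna6 ΔIBB/ΔIBB and WT, 0.647% of 9730 for Kpna6-/- and WT and 1.99% of 9826 for Kpna6 ΔIBB/ΔIBB and Kpna6-/-. At an unadjusted p below 0.05 there were 0, 2 (*Rfx2* and *Rfx7*) and 0 such genes in these comparisons with edgeR, and no other tool was run on this question.

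**Figure D5:**
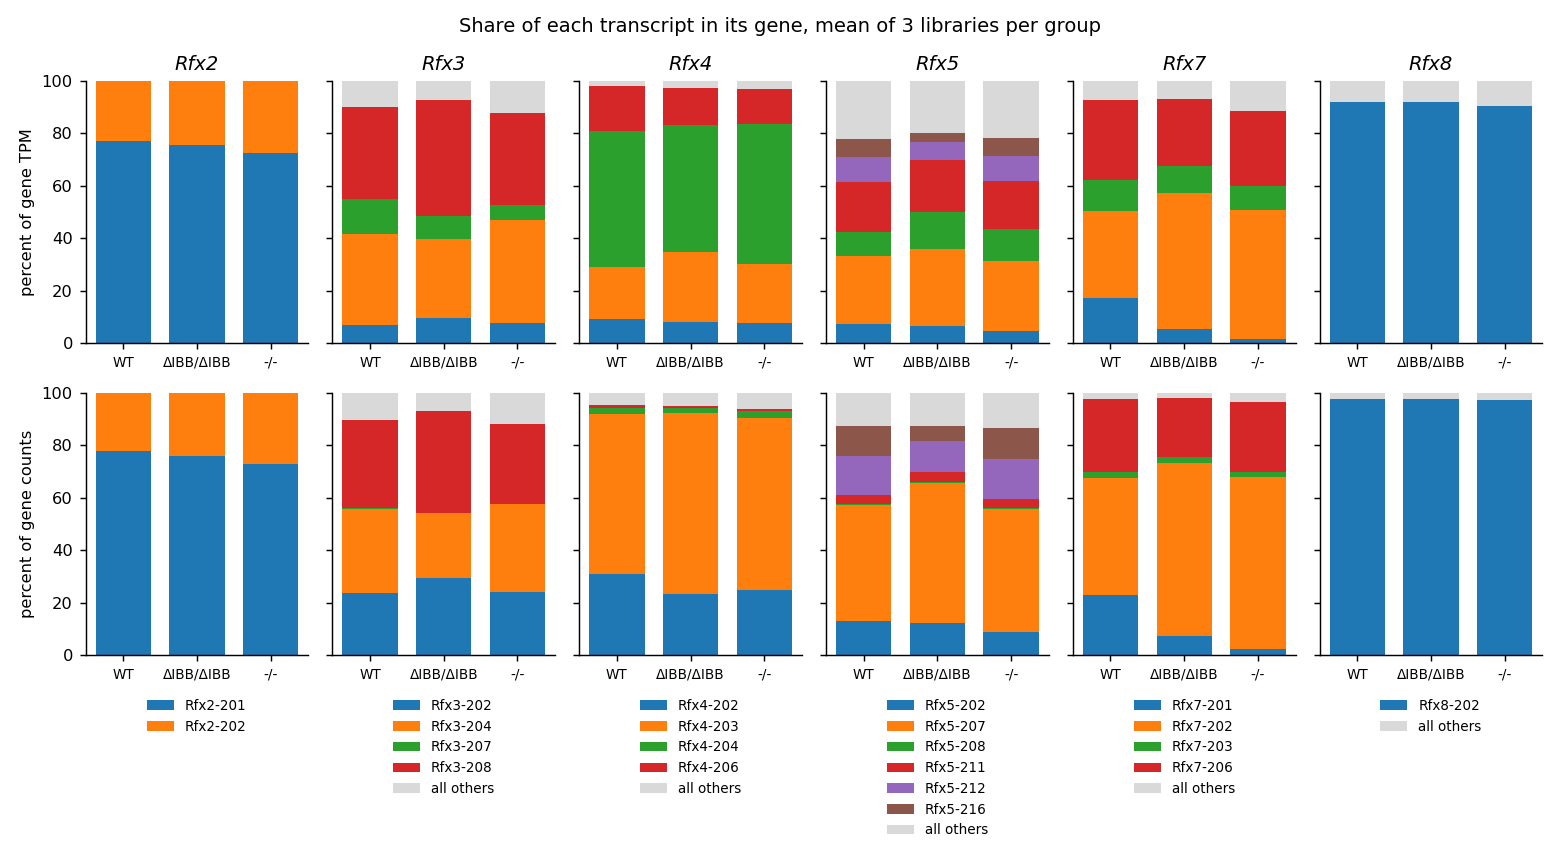
Mean share of each transcript in its gene, in percent of gene TPM above and of estimated counts below, for the 6 genes with more than 1 transcript and 3 libraries per group. Coloured blocks are transcripts that reach 10% in some group by either unit, and the *Rfx4* lead passes from Rfx4-204 by TPM to Rfx4-203 by counts.

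*Rfx1*, the founding family member and a widely expressed factor, lies at chr8:84066834-84096992 on the plus strand and was present as 1 transcript in the files. It reached 168, 175 and 184 TMM-scaled CPM in WT, 142, 142 and 159 in the Kpna6 ΔIBB/ΔIBB libraries and 172, 164 and 165 in Kpna6-/-. The Kpna6 ΔIBB/ΔIBB libraries lay below all others on this scale. In TPM the groups overlapped, at 50.9 to 57.7 in WT and 47.6 to 52.8 in Kpna6 ΔIBB/ΔIBB. The log2 fold change was -0.24 (SE 0.055, edgeR adjusted p = 0.00557) against WT, a call that held in 12 of 14 alternatives, and -0.18 (SE 0.050, edgeR adjusted p = 0.0166) against Kpna6-/-, a call that held in 9 of 14. The latter was lost under library size scaling (-0.08), with limma on log2(TPM + 1) (-0.04, adjusted p = 0.595) and without Kpna6 ΔIBB/ΔIBB replicate 1 or 2 or Kpna6-/- replicate 1.

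*Foxj1* did not pass in any comparison. It had 1 transcript of 2623 bases, at chr11:116330704-116335399 on the minus strand of GRCm38, and all of its 31-base words are its own. On TMM-scaled counts it reached 85.3, 89.6 and 84.3 CPM in WT, 72.0, 78.2 and 87.2 in the Kpna6 ΔIBB/ΔIBB libraries and 83.1, 76.6 and 85.4 in Kpna6-/-. The values overlapped on this scale. In TPM, Kpna6-/- (38.9 to 42.8) lay below WT (43.0 to 45.1), and Kpna6 ΔIBB/ΔIBB (40.2 to 48.0) overlapped both. The highest Kpna6 ΔIBB/ΔIBB value on both scales was that of replicate 3, the library with raised *Crisp1*, *Adam7* and *Rnase9*. The log2 fold change of Kpna6 ΔIBB/ΔIBB against WT was -0.12 (SE 0.065, 95% interval -0.27 to 0.02, edgeR adjusted p = 0.173), and without replicate 3 it was -0.20 and passed (edgeR adjusted p = 0.0225). The part of epididymis material in the *Foxj1* value was not tested. Without the same library *Rfx3* (-0.44), *Rfx1* (-0.30) and *Rfx4* (-0.22) also passed as lower.

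*Rfx5*, the factor of class II gene promoters, lies at chr3:94954075-94961561 on the plus strand and had the most transcripts, 17. It reached 30.9, 32.7 and 33.7 TMM-scaled CPM in WT, 29.8, 31.5 and 30.5 in the Kpna6 ΔIBB/ΔIBB libraries and 33.5, 34.9 and 33.4 in Kpna6-/-. The Kpna6 ΔIBB/ΔIBB values overlapped WT and lay below Kpna6-/-. The log2 fold change was -0.15 (SE 0.051, edgeR adjusted p = 0.0406) against Kpna6-/-, a call kept in 1 of 14 alternatives. Against WT it was -0.08 (edgeR adjusted p = 0.328), and its sign turned under library size scaling (0.02), with length-scaled counts (0.02) and with limma on log2(TPM + 1) (0.13). Protein-coding transcripts held 51.5% ± 3.21 of *Rfx5* TPM in WT. Rfx5-207, with the full coding length of 1974 bases, led with 25.7% ± 4.03 of TPM and 44.3% of counts, but none of its 31-base words is unique to it, and the retained-intron Rfx5-211 followed with 19.2% ± 1.73 of TPM.

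*Rfx7*, the member with the longest coding sequence, lies at chr9:72532240-72622937 on the plus strand and had the lowest level, at 8.49, 8.16 and 8.48 TPM in WT, 9.09, 10.4 and 8.13 in the Kpna6 ΔIBB/ΔIBB libraries and 8.59, 9.11 and 8.16 in Kpna6-/-. The groups overlapped, and the log2 fold changes against WT were 0.06 (SE 0.060, edgeR adjusted p = 0.484) and 0.04 (SE 0.058, edgeR adjusted p = 0.821). The split between its long coding transcripts was unstable: Rfx7-202 took 745, 563 and 273 estimated counts and Rfx7-201 71.4, 214 and 500 in the 3 WT libraries. These transcripts have the same coding length of 4377 bases, and 0 31-base words are unique to Rfx7-202 and 108 of 7958 to Rfx7-201, so that, with this spread within WT, no change in their balance was read. The noncoding Rfx7-206 held 30.6% ± 1.83 of TPM in WT.

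*Rfx8*, a member with few known functions at chr1:39665301-39720997 on the minus strand, was the clearest case of 1 leading transcript among the genes with more than 1. Rfx8-202, its only coding form, held 92.0% ± 0.810 of TPM in WT, 91.8% ± 0.561 in the Kpna6 ΔIBB/ΔIBB libraries and 90.5% ± 1.61 in Kpna6-/-. The gene reached 62.7, 66.0 and 58.6 TMM-scaled CPM in WT, 62.5, 65.7 and 63.2 in the Kpna6 ΔIBB/ΔIBB libraries and 61.0, 62.5 and 61.6 in Kpna6-/-. The groups overlapped, with a log2 fold change of 0.04 (SE 0.054, edgeR adjusted p = 0.644) against WT and 0.04 (SE 0.043, edgeR adjusted p = 0.485) against Kpna6-/-. *Rfx8* passed as higher against WT in 1 of 14 alternatives, limma on log2(TPM + 1) (0.16, adjusted p = 0.0484), and against Kpna6-/- in 2, library size scaling (0.14) and limma (0.17). In TPM, Kpna6 ΔIBB/ΔIBB (50.3 to 52.9) lay above WT (44.2 to 47.6).

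Genes of the pathways in which these factors are known to act were counted from lists chosen by their known function, with earlier results of these data known. Of 23 genes of intraflagellar transport and the BBSome, the machinery that carries cargo along the axoneme, 8 were lower and 0 higher in Kpna6 ΔIBB/ΔIBB than in WT, with a median log2 fold change of -0.09 against 0.01 for all genes. Over all genes 36.6% passed, 18.9% as lower and 17.7% as higher. The share passing in both directions together was thus not above the background, whereas the share passing as lower was above it. Under library size scaling the median was 0.01 with 5 lower and 3 higher. For all 18797 genes that scaling gave a median of 0.11, with 2326 lower and 5416 higher. *Bbs5*, a BBSome subunit, fell from 121 ± 5.95 to 97.1 ± 3.77 TPM (log2 fold change -0.52, SE 0.049, edgeR adjusted p = 3.37e-05). *Ift81* (-0.46, SE 0.043), *Ift74* (-0.28, SE 0.041) and *Ift172* (-0.22, SE 0.040), components of the IFT-B complex, fell as well with edgeR.

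Of 41 genes of the motile axoneme, 22 were lower and 0 higher, against 18.9% lower and 17.7% higher over all genes, with a median of -0.14. Under library size scaling 10 were lower and 2 higher, with a median of -0.05. Of all 18797 genes, 2326 were lower and 5416 higher under that scaling, with a median of 0.11. With limma on log2(TPM + 1) 7 were lower and 1 higher, with a median of -0.02. Of all genes, 1622 were lower and 3925 higher with limma, with a median of 0.096. *Hydin*, which encodes a central pair protein, fell from 20.1 ± 1.45 to 13.8 ± 0.692 TPM (log2 fold change -0.67, SE 0.054, edgeR adjusted p = 1.51e-05). *Ak8* (-0.35, SE 0.041), *Cfap206* (-0.33, SE 0.042) and *Mlf1* (-0.37, SE 0.048) also fell with edgeR. The round and elongating spermatid markers were lower in the same libraries, and their part in these counts was not tested.

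Among 17 tested regulators of ciliogenesis and of spermatid transcription, 4 were lower and 1 was higher, a share below the 36.6% of all genes, with a median log2 fold change of -0.05. *Crem*, an activator of post-meiotic genes, fell from 265 ± 6.43 to 209 ± 6.79 TPM (log2 fold change -0.45, SE 0.044, edgeR adjusted p = 3.90e-05). *Sox30* (-0.37, SE 0.044), *Brwd1* (-0.54, SE 0.068) and *Trp73* (-0.49, SE 0.170, edgeR adjusted p = 0.0429) were lower, and *Foxj3*, a forkhead relative of *Foxj1*, was higher (0.20, SE 0.058, edgeR adjusted p = 0.0178). *Trp73* was named after its value was seen, to complete the 4. *Crem*, *Sox30* and *Brwd1* passed under library size scaling, with length-scaled counts and with DESeq2. *Trp73* was lost in each of these and with limma, *Brwd1* with limma, and *Foxj3* with limma and length-scaled counts, whereas *Foxj2* passed as higher under library size scaling. All 8 round and all 8 elongating spermatid markers were lower in the same libraries, and their part in these values was not tested.

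Of 11 tested class II genes and their regulators, 2 were higher and 0 lower, near the 17.7% higher over all genes, namely *H2-DMa* (log2 fold change 0.52, SE 0.10, edgeR adjusted p = 0.00221) and *Cd74* (0.44, SE 0.113, edgeR adjusted p = 0.0106), both active in class II antigen loading, and the median was -0.0007. Next by adjusted p were *H2-Eb1* (0.28) and *Nfyc* (0.17), which did not pass with TMM scaling. Under library size scaling both passed as higher, making 4 of 11, against 5416 higher of all 18797 genes under that scaling. *H2-Eb1* also passed with limma. Macrophage markers, from cells that carry class II molecules, were higher in the same libraries, with a summed 58.7 to 67.2 TPM against 38.5 to 49.5 in WT, and their part in these values was not tested. *Rfxap*, at 42.6 ± 6.71 TPM in WT, and *Rfxank*, at 4.25 ± 0.231, had log2 fold changes of 0.04, the median of the 3 RFX partners, and 0.05 and did not pass. *Rfx6*, named after its value was seen, is a family member outside the 8 genes with 0.842 ± 0.116 TPM in WT and was lower (-0.82, SE 0.276, edgeR adjusted p = 0.0380), but not under library size scaling.

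In Kpna6-/- against WT, 0 of the 93 tested genes of the 5 lists passed with edgeR, 9 had an unadjusted p below 0.05, and 1 passed with DESeq2 (*Hydin*, lower). Of all 18681 genes, 299 (1.60%) passed with edgeR and 2778 had an unadjusted p below 0.05. With DESeq2, 466 of 18680 genes passed. In Kpna6 ΔIBB/ΔIBB against Kpna6-/-, 8 of 23 intraflagellar transport and BBSome genes and 18 of 41 axoneme genes were lower and 0 were higher, 3 of 15 tested regulators were lower and 2 higher, 2 of 11 class II genes were higher (*H2-DMa* and *Nfyc*), and 0 of the 3 RFX partners passed with edgeR, with 0 at an unadjusted p below 0.05 and 0 with DESeq2. Over all genes in that comparison 30.3% passed, 16.8% as lower and 13.5% as higher. The regulators were *Brwd1*, *Crem* and *Sox30* (lower) and *Foxj2* and *Foxj3* (higher). Library size scaling gave 4 lower and 2 higher intraflagellar transport and BBSome genes and 9 lower and 6 higher axoneme genes here. Of all 18752 genes, 2016 were lower and 4931 higher under that scaling.

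Promoter windows of 300 bases, 250 before and 50 after the start, were searched on both strands for the X-box half-site GTTGCC and for 2 half-sites facing each other, GTTGCC then 0 to 3 bases then GGCAAC, with at most 1 mismatch in all. Of 27025 genes in the RefSeq table, 14.1% held a half-site and 1.38% a pair. Of the 7 members in the table, 3 (*Rfx1*, *Rfx2* and *Rfx3*) held a half-site, which in *Rfx1* and *Rfx3* lay after the start, and only *Rfx2* held a pair, the one printed above, with a gap of 3 bases and 1 mismatch. Neither of the 2 *Rfx4* promoters held a half-site. Of the axoneme genes, 5 of 37 held a pair, *Hydin* among them, and of the intraflagellar transport and BBSome genes 3 of 19 did. A match describes the letters alone.

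The genes whose profile over the 9 libraries was most like that of *Rfx2* were *Mcrs1*, *Chaf1a* and *Upf3a*, with root mean square differences of 0.0193, 0.0222 and 0.0223 in centred log2(TPM + 1), among 11722 genes with a median of 0.141. For *Foxj1* they were *Tmem217*, *Efl1* and *Spesp1*, with 0.0323, 0.0326 and 0.0335, against a median of 0.155. The values share libraries and scaling, and the profile of *Rfx2* itself had an SD of 0.107.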

How the data were processed

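Poly(A)-selected RNA of 9 whole testes was sequenced as paired 150-base reads. The authors pseudo-aligned the reads with kallisto (version 0.45 in the submitters' processing notes, with mm10 as the build) and deposited, per transcript, estimated counts without normalization and TPM values scaled to a fixed total per library. The transcript release is not given in the sources used here. Here 95301 of 96626 transcripts were assigned to 32035 genes with GENCODE M21, and 1325 were left out. Estimated counts were summed per gene and rounded. The study tested with sleuth, which was not used here. edgeR 4.0.16 (R 4.3.3; filterByExpr, TMM, quasi-likelihood F test, two-sided, Benjamini-Hochberg over all features tested) was fitted to the 6 samples of each comparison, and diffSpliceDGE tested unequal change among transcripts. DESeq2 1.42.0 and limma 3.58.1 (log2(TPM + 1), pseudocount 1) were alternatives. Fold changes from limma understate changes of low genes.

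On simulated counts of 18544 genes for Kpna6 ΔIBB/ΔIBB against WT, 199 of 200 changed genes were recovered, with 9 others called, and 95 of 100 changed genes in the usage test, with 1 other. The simulated fold changes were larger than any gene-level change of the 8 genes, and no error of assigning reads to transcripts was simulated. These rates check that the tests run and do not give their power for changes as small as those seen here. Levels are the mean ± SD of 3 libraries. With 24859751 to 31484692 counts per library, counting error of the 8 genes is small, but the error of assigning reads to similar transcripts enters only through the spread between libraries. P-values measure the spread between these samples, since the labels name replicates and not animals. Other annotated genes overlap *Rfx1*, *Rfx3*, *Rfx5* and *Rfx7*, and the counting is not stated to use strand. By the GENCODE M21 sequences, all 31-base words of the *Rfx5* transcripts occur in no transcript of another gene. For *Rfx1* and *Rfx3* this held for at least 99.35% of the words of each transcript, and the lowest share was 92.5%, for Rfx7-204. The share was 99.6% for Rfx2-201 and Rfx2-202 and 98.5% for Rfx8-201. Some reads of *Rfx1*, *Rfx2*, *Rfx3*, *Rfx7* and *Rfx8* may thus be shared. Of the annotated transcripts, 3 of *Rfx1* and 3 of *Rfx2* were not analysed here. The files held 0 columns of other samples.

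The 8 genes, marker lists and pathway lists were chosen with earlier results of these data known. Named besides the 8 genes were their transcripts with a share of at least 10% in a group or an adjusted p below 0.05, *Kpna6*, up to 4 genes per pathway list with the smallest adjusted p between Kpna6 ΔIBB/ΔIBB and WT at 1 TPM or more, and 3 genes most like *Rfx2* and *Foxj1* at 5 TPM or more. Replicate numbers are shared between the groups, but same-numbered samples did not deviate together (correlations -0.07 to 0.08), so the main fits have no block. Left-out libraries, no low-count filter, another filter, 1 fit of 9 samples, the replicate block, library size scaling and length-scaled counts were tried. The sum over protein-coding transcripts, the ranges of single transcripts and the list counts under other scalings were added after seeing the data.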

Additional observations from a re-analysis of the deposited data

How the results depend on the processing

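The direction of *Rfx1*, *Rfx3* and *Rfx4* between Kpna6 ΔIBB/ΔIBB and WT, and between Kpna6 ΔIBB/ΔIBB and Kpna6-/-, was the same in all 14 alternatives. Genes passing were 2 to 4 of 8 in the first comparison and 2 to 4 in the second, where leaving out 1 library gave 2 to 3, with 2 without Kpna6-/- replicate 1, Kpna6 ΔIBB/ΔIBB replicate 1 or Kpna6 ΔIBB/ΔIBB replicate 2. Among all genes, 32 to 624 passed between Kpna6-/- and WT over the alternatives, against 299. Of the transcripts, 4 passed between Kpna6 ΔIBB/ΔIBB and WT, but 2 with library size scaling, 2 without the low-count filter, 1 with limma and 0 to 2 with 1 library left out. With the replicate number as a block the transcript count was 2, and the counts of the 8 genes stayed at 3, 0 and 4 (correlations of same-numbered samples were -0.07 to 0.08, so the numbers do not pair them). Between Kpna6 ΔIBB/ΔIBB and Kpna6-/- the transcript count was 2 with DESeq2 and in 1 fit of 9 samples, and 0 to 1 with 1 library left out (0 without Kpna6-/- replicate 1 or 2 or Kpna6 ΔIBB/ΔIBB replicate 1). Between Kpna6-/- and WT it was 1 with DESeq2, and unequal transcript change passed in 0 to 1 genes (*Rfx7*, without Kpna6-/- replicate 3).

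Signs turned, among values that had passed, only for *Rfx5* between Kpna6 ΔIBB/ΔIBB and Kpna6-/- (log2 fold change 0.037 with limma). Between Kpna6 ΔIBB/ΔIBB and WT, *Rfx5* gave 0.020, 0.021 and 0.13 (library size, length-scaled counts, limma) and *Rfx8* -0.0087 to 0.070 with 1 library left out. Between Kpna6 ΔIBB/ΔIBB and Kpna6-/-, *Foxj1* gave 0.051 (library size), 0.087 (limma) and -0.12 to 0.016 with 1 library left out, and *Rfx7* -0.034 (length-scaled counts) and -0.031 to 0.054. Between Kpna6-/- and WT, *Rfx8* gave 0.0030 (length-scaled counts), and with 1 library left out *Rfx2* ranged from -0.0050 to 0.057, *Rfx4* from -0.066 to 0.026, *Rfx7* from -0.0032 to 0.062, *Rfx8* from -0.059 to 0.024, Rfx3-201 from -0.36 to 0.22, Rfx3-204 from -0.12 to 0.094 and Rfx3-206 from -0.27 to 0.22. The cause was not tested.

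Shares moved with the unit. In WT, Rfx4-204 held 2.41% of counts, Rfx5-207 44.3% of counts and 50.3% of coding TPM, Rfx7-202 53.8% of coding TPM, and Rfx8-202 97.9% of counts and 100% of coding TPM. Depth limits Rfx3-201, Rfx3-206 and Rfx4-204, which had at most 71.6, 59.4 and 68.3 estimated counts in any library.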
